A study of Caenorhabditis elegans with 18 samples.

Results

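The cytosolic ribosomal protein genes were taken as all genes whose WormBase symbol begins with rpl- or rps- and a number, after the sequence names in the count files had been matched to symbols and isoform letters removed. The files held 76 such genes among 20505 gene models, 45 of the large subunit (rpl) and 31 of the small subunit (rps). The rule used no measured value. The symbols rpl-41.1 and rpl-41.2 also meet the rule and are not analysed here. All 76 passed the filter on low counts and were among the 15110 genes tested.

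Ribosomal proteins assemble with ribosomal RNA in the nucleolus into the small subunit, which decodes the messenger RNA, and the large subunit, which joins amino acids and holds the exit tunnel. Their genes are among the most strongly transcribed of growing animals, and their supply is tied to growth by the TOR pathway and its S6 kinase. In C. elegans much of the growth at the last larval stage is in the germline, which divides while most somatic cells do not.

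RNA came from whole worms at the L4 larval stage, grown from hatch at 20C. Worms were the N2 strain, the mutant lin-65(n3441) or the mutant met-2(ok2307), and fed bacteria with the empty vector or with empty vector plus cco-1 RNAi, which targets a nuclear gene for a cytochrome c oxidase subunit (now cox-5B). MET-2 is a histone H3 lysine 9 methyltransferase and LIN-65 is a nuclear protein that works with it. Each of the 6 groups had 3 polyA-selected libraries, 18 in all, with no statement that they are separate cultures, so p-values measure the spread between these libraries, which may be technical.

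Library totals ran from 5141303 to 19261705 counts. The target gene and the mutated genes were at their lowest where the labels place them: mean cox-5B was 718 CPM (counts per library size after scaling with TMM factors) in N2 with empty vector and 296 with cco-1 RNAi, and mean lin-65 and met-2 were lower in their own mutants than in N2 on both diets. The labels of lin-65 empty vector replicate 1 disagree, since its strain is given as N2 but its title and source name lin-65, by which it was grouped. That library and met-2 cco-1 RNAi replicate 1 stood farthest from the other libraries of their groups, with a median difference of 0.66 and 0.74 on the log2 scale against 0.18 to 0.56 for the other 16. Where stated, results are given again for the remaining 16 libraries.

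The 76 genes made up 0.371% of the gene models and held 21.9% of all counts. Their share of a library was 24.55%, 25.54% and 23.46% in the N2 empty vector libraries and 21.66%, 21.18% and 22.39% on cco-1 RNAi, so the N2 groups did not overlap. In lin-65 it was 26.37%, 20.96% and 21.13% on empty vector and 20.53%, 20.96% and 21.13% on cco-1 RNAi, and in met-2 18.65%, 20.19% and 23.89%, then 22.25%, 19.35% and 18.46%. In both mutants the diets overlapped, and in each mutant 1 empty vector library lay well above the other 2.

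Within that share, mean levels were spread over a wide range per length of transcript. In CPM per kilobase over all 18 libraries the median member was at 4219, and 74 of the 76 lay within 10-fold of it. The 3 members with the most CPM were rps-8, rps-0 and rpl-2, small and large subunit proteins at 13853, 10708 and 9984 CPM per kilobase. With them rps-23, a small subunit protein of the decoding centre, stood at 17299. At the low end rpl-42 was at 9.89 and rpl-37 at 77.7 CPM per kilobase, followed among the 3 lowest by CPM by rps-27 at 953. In the WBcel235 annotation (Ensembl 115) rpl-37 overlaps pitp-1 on the opposite strand, and 14 of the 76 overlap some coding gene, whose reads cannot be told apart as no strand setting is given in the sources used here.

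The members are short genes: their median annotated transcript is 513.5 nt, against 1161 nt for all matched genes, and their median 3′ UTR is 55.5 nt against 126 nt. They sit on every chromosome, with 21 on I, 10 on II, 18 on III, 17 on IV and 8 on V, but only rpl-11.2 and rpl-25.1 on X.

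The members' values by library were followed over the 18 libraries. The members' median log2 CPM, set against the mean of the 18 libraries, was 0.28, 0.39 and 0.17 in N2 on empty vector and -0.25, -0.19 and -0.11 in N2 on cco-1 RNAi. In lin-65 it was 0.59, -0.17 and -0.10, then -0.26, -0.17 and -0.12, and in met-2 it was -0.35, -0.20 and 0.46, then 0.36, -0.07 and -0.27. The highest library was lin-65 empty vector replicate 1, and the lowest was met-2 empty vector replicate 1. As a description over the 18 libraries, 37 members (48.7%) had a Pearson correlation above 0.8 with the median of the other members, against 1.35% of the other genes with the median of all members, and 8 members, picked out here after their values were seen, had a negative one: rps-2, rps-6, rps-8, rps-20, rps-22, rps-23, rpl-7 and rpl-37. The share of other genes with a negative correlation is not given here, nor are the correlations in the 16 libraries.

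**Figure D1:**
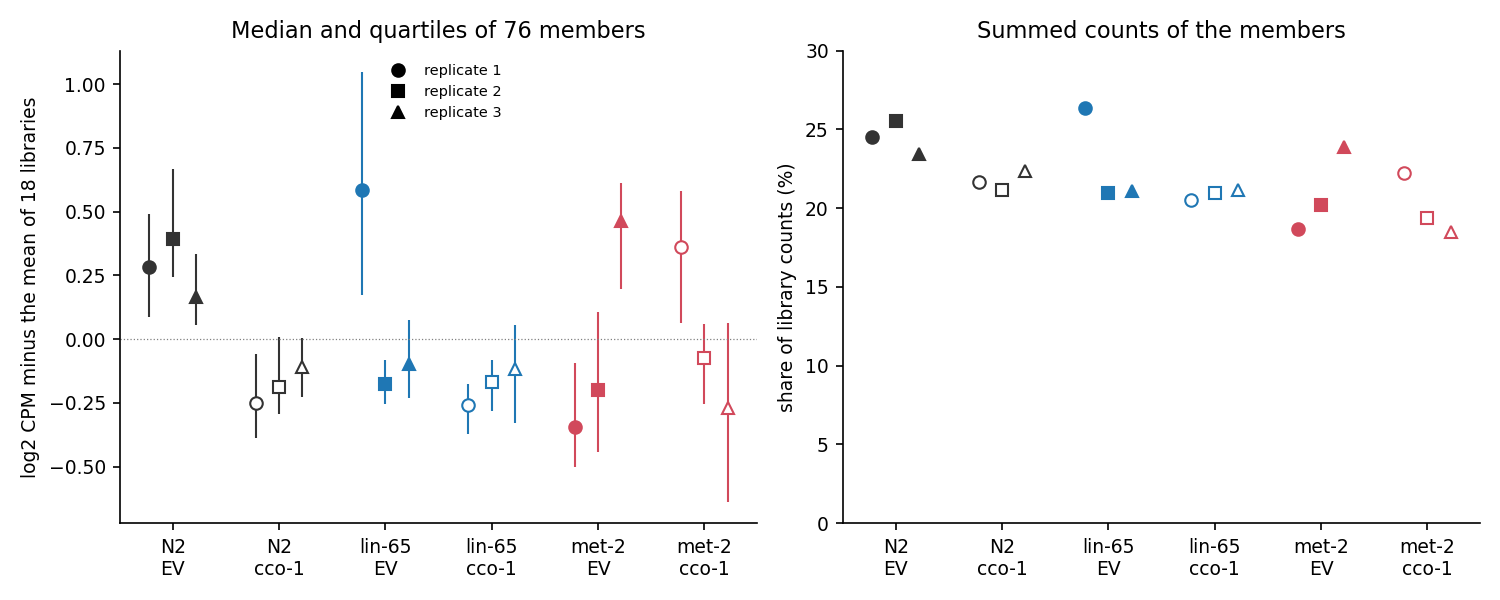
Left, the median (symbol) and quartiles (bar) over the 76 ribosomal protein genes of log2 CPM minus the gene's mean over the 18 libraries; right, their summed counts as a percent of the library. Filled symbols are empty vector (EV) and open symbols cco-1 RNAi; the N2 libraries separate by diet, from 0.17 to 0.39 on empty vector and from -0.25 to -0.11 on cco-1 RNAi, while lin-65 and met-2 libraries overlap.

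The dependence of a library's counts on transcript length also differed between libraries. For genes that are not members, log2 CPM minus the gene's mean over the 18 libraries was regressed on log2 transcript length. The slope, relative to the average library, was -0.134 to -0.080 in N2 on empty vector and 0.039 to 0.111 in N2 on cco-1 RNAi. It was -0.287 in lin-65 empty vector replicate 1 and -0.403 in met-2 cco-1 RNAi replicate 1, and 0.270 in met-2 cco-1 RNAi replicate 3. In met-2 empty vector replicate 3, where the members' median was second highest, it was -0.031. The part of this slope in the results below was not tested beyond the fits with the length trend removed.

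The first question was how the members responded to cco-1 RNAi in N2. Of the 76, 68 had a lower fitted level on cco-1 RNAi and 8 a higher one, with a median log2 fold change of -0.50 against -0.01 over all genes tested. In 54 members (71.1%) every cco-1 RNAi library lay below every empty vector library, against 18.1% of all genes, and in 2 members, rps-6 and rps-8, every cco-1 RNAi library lay above, against 20.5% of all genes. Large and small subunit genes had medians of -0.52 and -0.47. None passed an adjusted p of 0.05 in edgeR's quasi-likelihood test over all genes, where 0.841% of genes passed, and 18 members had an unadjusted p under 0.05, a share of 23.7% against 17.9% of all genes. DESeq2 called 3 members lower (3.63% of genes) and limma voom with sample weights 32 (27.6% of genes).

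The number called depended on which libraries were fitted. With the 6 N2 libraries fitted alone 37 members (48.7%) were lower and none higher, against 20.4% of genes called, and with the replicate number as a block in those 6 libraries 38 (50.0%) were lower against 31% of genes. In the 16 libraries 21 (27.6%) were lower against 18.5%. The fit of all 18 libraries takes 1 estimate of spread per gene from N2 and the mutants together.

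The lowest fold changes in N2 belonged to rpl-39, rps-27 and rps-28, whose transcripts of 236, 364 and 252 nt are among the shorter ones. Levels of rpl-39, whose protein lines the exit tunnel, were 1555, 1229.9 and 1095 CPM on empty vector and 503, 626 and 418 on cco-1 RNAi, a log2 fold change of -1.33 ± 0.40 (SE; adjusted p = 0.137). Its groups did not overlap, and its reads may include grl-10, which it overlaps on the opposite strand. The small subunit gene rps-27 went from 471, 679.6 and 637 CPM to 225, 238 and 261 (-1.30 ± 0.31, adjusted p = 0.058), the smallest adjusted p of any member. It passed the threshold at an adjusted p of 0.043 without lin-65 empty vector replicate 1, 0.040 without lin-65 cco-1 RNAi replicate 2, and 0.009 and 0.035 without met-2 cco-1 RNAi replicates 1 and 3, and rpl-39 passed at 0.034 without met-2 cco-1 RNAi replicate 1, the only library whose removal did so. Another small subunit gene, rps-28, was at 952, 980.1 and 734 CPM and then at 371, 402 and 374 (-1.22 ± 0.51, adjusted p = 0.236). All 3 were lower in every cco-1 RNAi library. All 3 passed with the replicate number as a block in the 6 N2 libraries (adjusted p = 0.000277 for rpl-39, 0.000226 for rps-27 and 0.000325 for rps-28, edgeR), in the 16 libraries (0.0041, 0.00198 and 0.0186) and with voom (0.00102, 0.000787 and 0.00479).

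At the other end were the small subunit genes rps-2, rps-8 and rps-6, with transcripts of 998, 714 and 816 nt. Levels of rps-2 were 2557, 5879 and 3701 CPM on empty vector and 6278, 4357 and 5809 on cco-1 RNAi (log2 fold change 0.44 ± 0.37, adjusted p = 0.518), with overlapping groups. In rps-8 they were 6959, 10270.3 and 10009 CPM and then 12795, 10879 and 11422 (0.37 ± 0.24, adjusted p = 0.409), each cco-1 RNAi library being above each empty vector library. In rps-6, whose product is the substrate for which S6 kinase is named, they were 5469, 5690.0 and 6058 CPM and then 6295, 6997 and 7125 (0.25 ± 0.24, adjusted p = 0.588), again without overlap. None of the 3 passed the test in edgeR.

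**Figure D2:**
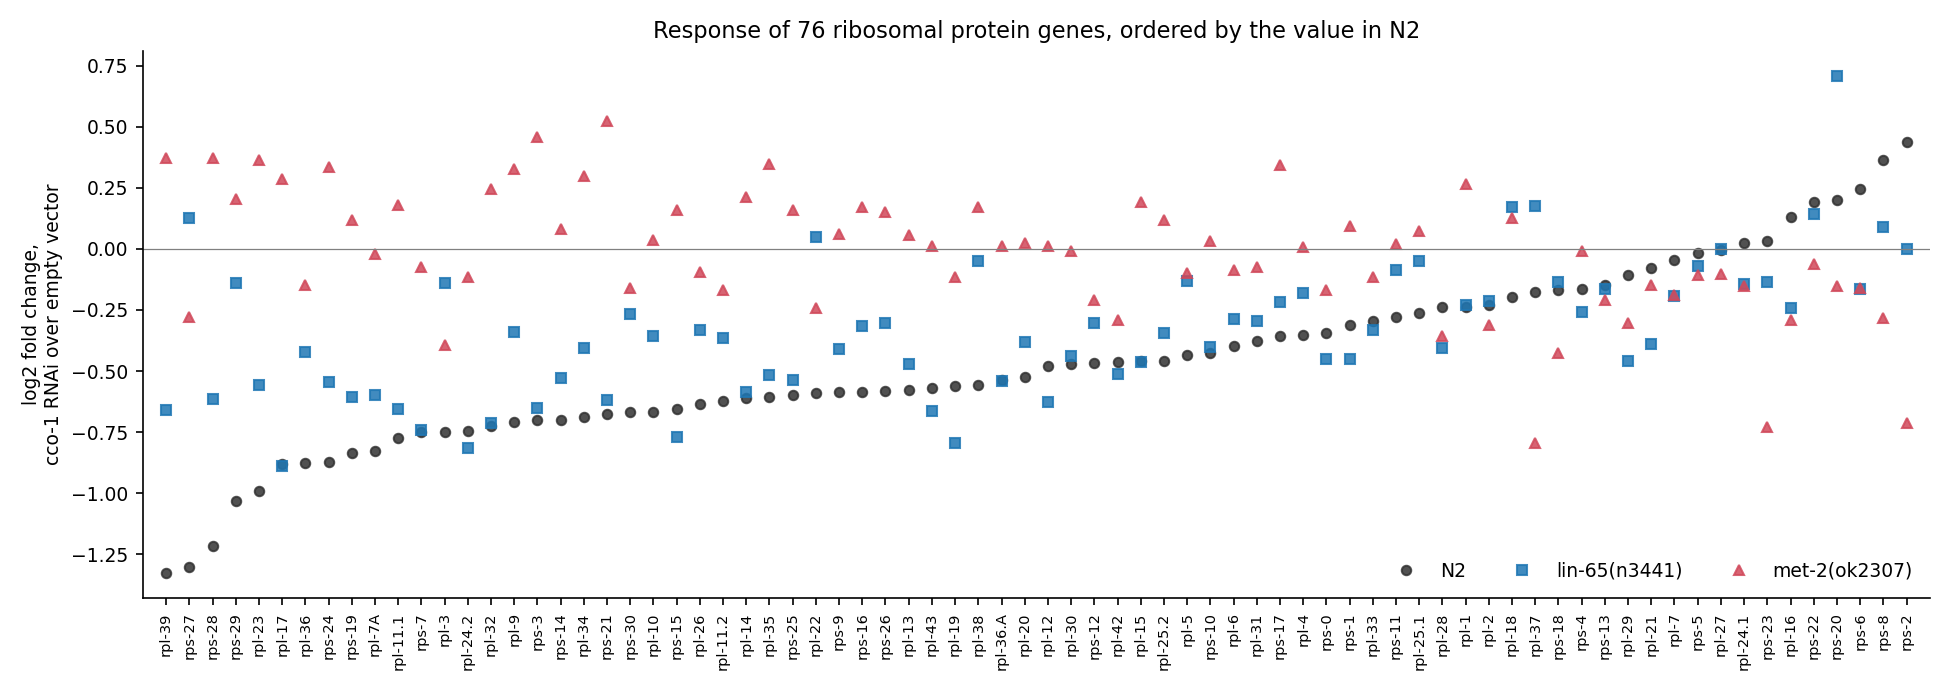
Log2 fold change of cco-1 RNAi over empty vector for each of the 76 genes (x axis, ordered by the value in N2) in N2 (circles), lin-65 (squares) and met-2 (triangles). Values in N2 run from -1.33 in rpl-39 to 0.44 in rps-2, lin-65 follows on the negative side for most genes, and met-2 has 38 genes on either side of 0.

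Transcript length and membership can be set side by side. Among members of up to 476 nt the median log2 fold change in N2 was -0.60, against -0.45 for the 989 other genes of that length. Between 476 and 664 nt it was -0.47 against -0.27, and above 664 nt it was -0.40 against 0.05. With the length trend removed within each library the members' median was -0.24, and with the trend on 3′ UTR length removed -0.33. The members' median was thus below that of other genes in each length class, and closer to 0 with either trend removed. The last class is not matched in length, since its members reach 1334 nt and the class runs to 44289 nt.

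In lin-65 the same comparison had a median of -0.35 over the members, 68 being negative and 8 positive, against -0.02 over all genes. Every cco-1 RNAi library was below every empty vector library in 10 members (13.2%), against 8.50% of all genes, and above in none. No member passed the threshold in edgeR, where 0.715% of genes did, 9 (11.8%) had an unadjusted p under 0.05 against 12.4% of genes, DESeq2 called none (1.83% of genes) and voom 1 (10.5% of genes). The median was -0.05 with lin-65 empty vector replicate 1 left out and -0.06 in the 16 libraries. With all 18 libraries it was -0.11 by library totals, by voom or with the transcript length trend removed, and -0.086 with the 3′ UTR trend removed.

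The 3 lowest members in lin-65 were rpl-17, rpl-24.2 and rpl-19. Levels of rpl-17, a large subunit gene, were 18289, 6802 and 8509 CPM on empty vector and 6901, 5732 and 5506 on cco-1 RNAi (-0.89 ± 0.31, adjusted p = 0.255), with the first empty vector library far above the others. Levels of rpl-24.2, whose yeast relative is the biogenesis factor Rlp24, were 1175, 711 and 1030.1 CPM and then 641, 362 and 656 (-0.81 ± 0.31, adjusted p = 0.294), with no overlap, and voom called it. For rpl-19 they were 10765, 3928 and 5025 CPM and then 3758, 4197 and 3407 (-0.80 ± 0.34, adjusted p = 0.358). In the 16 libraries the values were -0.35 for rpl-17, -0.66 for rpl-24.2 and -0.25 for rpl-19, none of them called.

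The highest members in lin-65 were rps-20, rpl-37 and rpl-18. The small subunit gene rps-20 was at 126, 436 and 339 CPM on empty vector and 305, 529 and 639 on cco-1 RNAi (0.71 ± 0.42, adjusted p = 0.494), its lowest value again being in replicate 1. Values for rpl-37 and rpl-18 were 0.18 ± 0.48 and 0.17 ± 0.23 with overlapping groups.

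In met-2 the members had no common direction. The median log2 fold change was 0.00, with 38 negative and 38 positive, against 0.01 over all genes. Among members of up to 476 nt it was 0.08, against 0.32 for other genes of that length. Between 476 and 664 nt it was 0.03 against 0.22. Above 664 nt, a class not matched in length, it was -0.10 against -0.03. Every cco-1 RNAi library was below in 3 members (3.95%), against 5.98% of genes: rps-23, rps-18 and rpl-16, the last 2 outside the naming rule and named because they make up the count. None passed in edgeR (1.11% of genes), 2 (2.63%) had an unadjusted p under 0.05 against 9.80% of genes, DESeq2 called none (2.43% of genes) and voom called rps-23 (7.46% of genes). Without met-2 empty vector replicate 3 the median was 0.27, and without met-2 cco-1 RNAi replicate 1 it was -0.24, as in the 16 libraries.

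Among the lowest in met-2, rpl-37 was at 18.4, 26.6 and 12.8 CPM on empty vector and 15.4, 13.3 and 4.24 on cco-1 RNAi (-0.79 ± 0.49, adjusted p = 0.666). Levels of rps-23 were 7057, 11371 and 8042 CPM and then 5199.5, 5879 and 4905 (-0.73 ± 0.24, adjusted p = 0.249), without overlap. For rps-2 the fold change was -0.71 ± 0.37 with overlapping groups, of the opposite sign to its value in N2. The highest were rps-21 at 0.52 ± 0.39, rps-3 at 0.46 ± 0.31 and rpl-39 at 0.37 ± 0.40, all with overlapping groups.

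Signs can be compared across the 3 responses, which share no libraries. Of the 76 members, 64 were negative in both N2 and lin-65, and 27 were negative in all 3 strains. The 8 members positive in N2 were all negative in met-2, and 38 members were negative in N2 and positive in met-2. Of all genes 50.4%, 51.4% and 49.4% were negative in the N2, lin-65 and met-2 responses. Joint signs were not counted over all genes or in the 16 libraries. With 1 library left out the members' median reached -0.05 in lin-65 and ran from -0.24 to 0.27 in met-2, so these counts rest on single libraries.

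The difference between the strains' responses was tested directly. The lin-65 response minus the N2 response had a median of 0.07 over the members against -0.04 over all genes, 0.42 with lin-65 empty vector replicate 1 left out, -0.05 and -0.02 without its replicates 2 and 3, and 0.40 in the 16 libraries. No member and 0% of genes passed in edgeR, and 1 member (1.32%) had an unadjusted p under 0.05 against 3.18% of genes. That gene was rps-27, at -1.30 in N2 and 0.13 in lin-65 (difference 1.43 ± 0.43, adjusted p = 0.999). DESeq2 and voom called no member either, against 0.0397% and 0.218% of genes.

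For met-2 minus N2 the median was 0.50 over the members against 0.02 over all genes. Members of up to 476 nt had a median of 0.73, and other genes of that length 0.74. Between 476 and 664 nt these medians were 0.46 and 0.47. Above 664 nt, a class not matched in length, they were 0.36 and -0.07. The median over all members was 0.27 without met-2 cco-1 RNAi replicate 1, 0.79 without met-2 empty vector replicate 3, and 0.15 with the transcript length trend removed. No member and 0% of genes passed in edgeR, with 12 members (15.8%) at an unadjusted p under 0.05 against 17.2% of genes. DESeq2 called none (0.986% of genes) and voom called 10 members (13.2%) higher, against 15.8% of genes called in either direction. The largest difference was in rpl-39 (1.70 ± 0.56, adjusted p = 0.245) and the lowest in rps-2 (-1.15 ± 0.52, adjusted p = 0.279). 

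The second question was how the mutants differed from N2 on the same diet. These comparisons share their N2 libraries with the N2 response and with each other, so similarity between them is no separate result. On empty vector, lin-65 had a median of -0.12 against N2 and 0.06 over all genes. The members' median was -0.42 when the first lin-65 library on empty vector was left out, 0.01 without replicate 2 and -0.01 without replicate 3. In 9 members (11.8%) all lin-65 libraries lay below all N2 libraries, against 6.0% of genes. None passed in edgeR (1.42% of genes), and 3 (3.95%) had an unadjusted p under 0.05 against 10.3% of genes. DESeq2 and voom each called 1, against 2.59% and 6.94% of genes.

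The DESeq2 call in lin-65 was rpl-3, a large subunit gene whose product reaches toward the peptidyl transferase centre. It was at 7933, 10117 and 8946 CPM in N2 and 5147, 4711 and 6166 in lin-65 on empty vector (-0.75 ± 0.22, adjusted p = 0.117 in edgeR), with every lin-65 library lower. Levels of rps-27 were 329, 302 and 367 CPM in lin-65 on empty vector, also below all its N2 values (-0.84 ± 0.31, adjusted p = 0.280). The other extreme members were rps-20 at -0.70 ± 0.42, and at the high end rpl-42, rpl-43 and rpl-32 at 0.17 ± 0.36, 0.16 ± 0.44 and 0.15 ± 0.41, each with overlapping groups.

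In met-2 on empty vector 6 members fell against N2 and none rose. That is 7.89% of the members, against 15.3% of all genes called lower and 30.5% called in either direction. The median was -0.27 against 0.04 over all genes, or -0.59 without met-2 empty vector replicate 3 and -0.17 without N2 empty vector replicate 2. Every met-2 library was below every N2 library in 15 members (19.7%), against 26.3% of genes, and above in 2 (2.63%), against 29.7%. With the transcript length trend removed the members' median was -0.01, with the 3′ UTR trend removed it was 0.016, and among genes of up to 476 nt members and others had medians of -0.41 and -0.42.

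**Figure D3:**
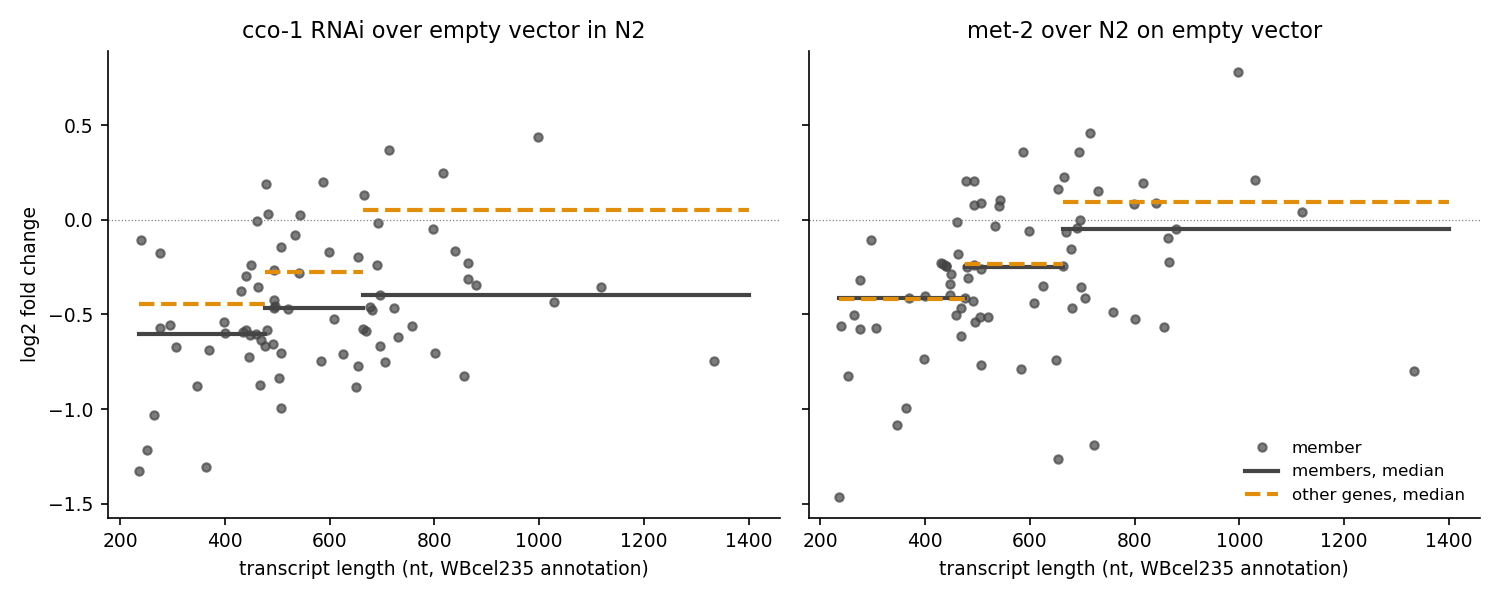
Log2 fold change of the 76 genes (points) against annotated transcript length, for cco-1 RNAi over empty vector in N2 (left) and met-2 over N2 on empty vector (right), with medians of members (solid) and of all other genes (dashed) in 3 length classes; the last class also takes in other genes longer than the axis. In N2 the members' medians of -0.60, -0.47 and -0.40 lie below those of other genes in each class, while in the right panel the medians nearly coincide up to 664 nt.

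The 6 genes that fell were rpl-39, rpl-11.1, rpl-42, rpl-36, rps-27 and rpl-3. Levels of rpl-39 in met-2 were 434, 267 and 709 CPM (-1.46 ± 0.40, adjusted p = 0.0133), all below N2. Levels of rpl-36, a large subunit gene, were 3619, 3974 and 3759 CPM in N2 and 1477, 1587 and 2291 in met-2 (-1.08 ± 0.34, adjusted p = 0.0232). In rps-27 the met-2 values were 228, 331 and 340.3 CPM (-0.99 ± 0.31, adjusted p = 0.0227), and in rpl-3 they were 3748, 5224 and 6563 CPM (-0.80 ± 0.22, adjusted p = 0.0121). The rarely counted rpl-42 was at 9.64, 11.4 and 7.85 CPM in N2 and 4.4, 4.31 and 3.94 in met-2 (-1.19 ± 0.37, adjusted p = 0.0239). None of the 6 overlapped between strains.

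These calls were sensitive to leaving out 1 library. The number of members called was 1 without N2 empty vector replicate 2 or without met-2 empty vector replicate 1, 2 without met-2 empty vector replicate 2, and 10 without met-2 cco-1 RNAi replicate 1. Each of the 6 lost its call without at least 1 library, rpl-39 only without met-2 empty vector replicate 2 (adjusted p = 0.0603). In the 16 libraries 20 members were lower and 2, rps-2 and rps-8, higher, against 49.1% of genes called. With the 3′ UTR trend also removed in those libraries 9 were lower and 9 higher.

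Those 2 genes lay above N2 in every met-2 library. Levels of rps-2 in met-2 on empty vector were 6719, 6677 and 7444 CPM (0.78 ± 0.37, adjusted p = 0.112), and of rps-8 10459, 13393 and 13528 CPM (0.46 ± 0.24, adjusted p = 0.150). Both missed the threshold in the 18 libraries.

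Markers of several tissues were also called in met-2 on empty vector, where 15.3% of all genes were called lower and 15.3% higher. Of 30 germline genes, 10 were lower and none higher in met-2 on empty vector, with a summed level of 1488 to 1993 CPM against 2426 to 3308 in N2 and none at 0 in any group. Of 37 sperm genes tested 21 were lower, with a summed level of 1026 to 1594 CPM against 2471 to 3897, while 5 of 10 neuronal, 4 of 10 epidermal and 3 of 9 intestinal genes were higher, and of 10 muscle genes 2 were higher and 1 lower. In RNA from whole worms fewer germ cells and less RNA per germ cell cannot be told apart, and the part of these tissues in the members' values was not tested.

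On cco-1 RNAi, lin-65 had a median of -0.01 against N2, or 0.081 when scaled by library totals, and the median over all genes was 0.01 and 0.10. All lin-65 libraries were below N2 in 14 members (18.4%), against 12.8% of genes, and above in 4 (5.26%), against 14% of genes. None passed in edgeR (1.11% of genes), 6 (7.89%) had an unadjusted p under 0.05 against 9.73% of genes, DESeq2 called none (2.14% of genes) and voom 8 (10.5%, against 13.4% of genes). The 14 members lower in every library were rpl-12, rpl-16, rpl-21, rpl-24.1, rpl-28, rpl-29, rps-0, rps-2, rps-4, rps-6, rps-8, rps-18, rps-22 and rps-23. They are named here because they make up the count.

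For met-2 on cco-1 RNAi, 2 members fell and 1 rose against N2, 3.95% of the members against 20.8% of genes. The median was 0.24 against 0.03 over all genes, and -0.03 without met-2 cco-1 RNAi replicate 1. All met-2 libraries were below N2 in 7 members (9.21%) and above in 15 (19.7%), against 19.4% of genes each way. In the 16 libraries 8 members were lower and 2 higher, against 28.7% of genes. Among all genes 9.59% were called lower here and 20.8% in either direction. Of 30 germline genes 16 were lower, with a summed level of 1168 to 2066 CPM against 2697 to 3314 in N2, and of 37 sperm genes 13 were lower, at 461 to 1474 CPM against 1827 to 2691. Of the somatic lists 2 of 10 neuronal and 2 of 9 intestinal genes were higher, 1 of 10 muscle genes was lower and no epidermal gene was called. Their part in the members' values was not tested.

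The firmest call of any member was rps-23 in this comparison. Its levels on cco-1 RNAi were 13371, 8706 and 11413 CPM in N2 and 5199.5, 5879 and 4905 in met-2 (-1.07 ± 0.25, adjusted p = 0.00571), and it stayed called in every other setting and without any 1 library. The large subunit gene rpl-29 was at 2065, 2471 and 2379.9 CPM in N2 and 1568, 1179 and 1343 in met-2 (-0.76 ± 0.26, adjusted p = 0.0473). Levels of rpl-5, whose product carries the 5S ribosomal RNA together with that of rpl-11, were 2666, 2510.2 and 2718 CPM in N2 and 4043, 3751 and 3749 in met-2 (0.55 ± 0.19, adjusted p = 0.0479). The annotated rpl-5 overlaps bcs-1 on the same strand. Leaving out 1 library undid the rpl-29 call in 12 of 18 cases and the rpl-5 call in 15 of 18. The adjusted p then reached 0.133 for rpl-29 and 0.145 for rpl-5. Each call was also lost in 7 of 12 other settings.

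**Figure D4:**
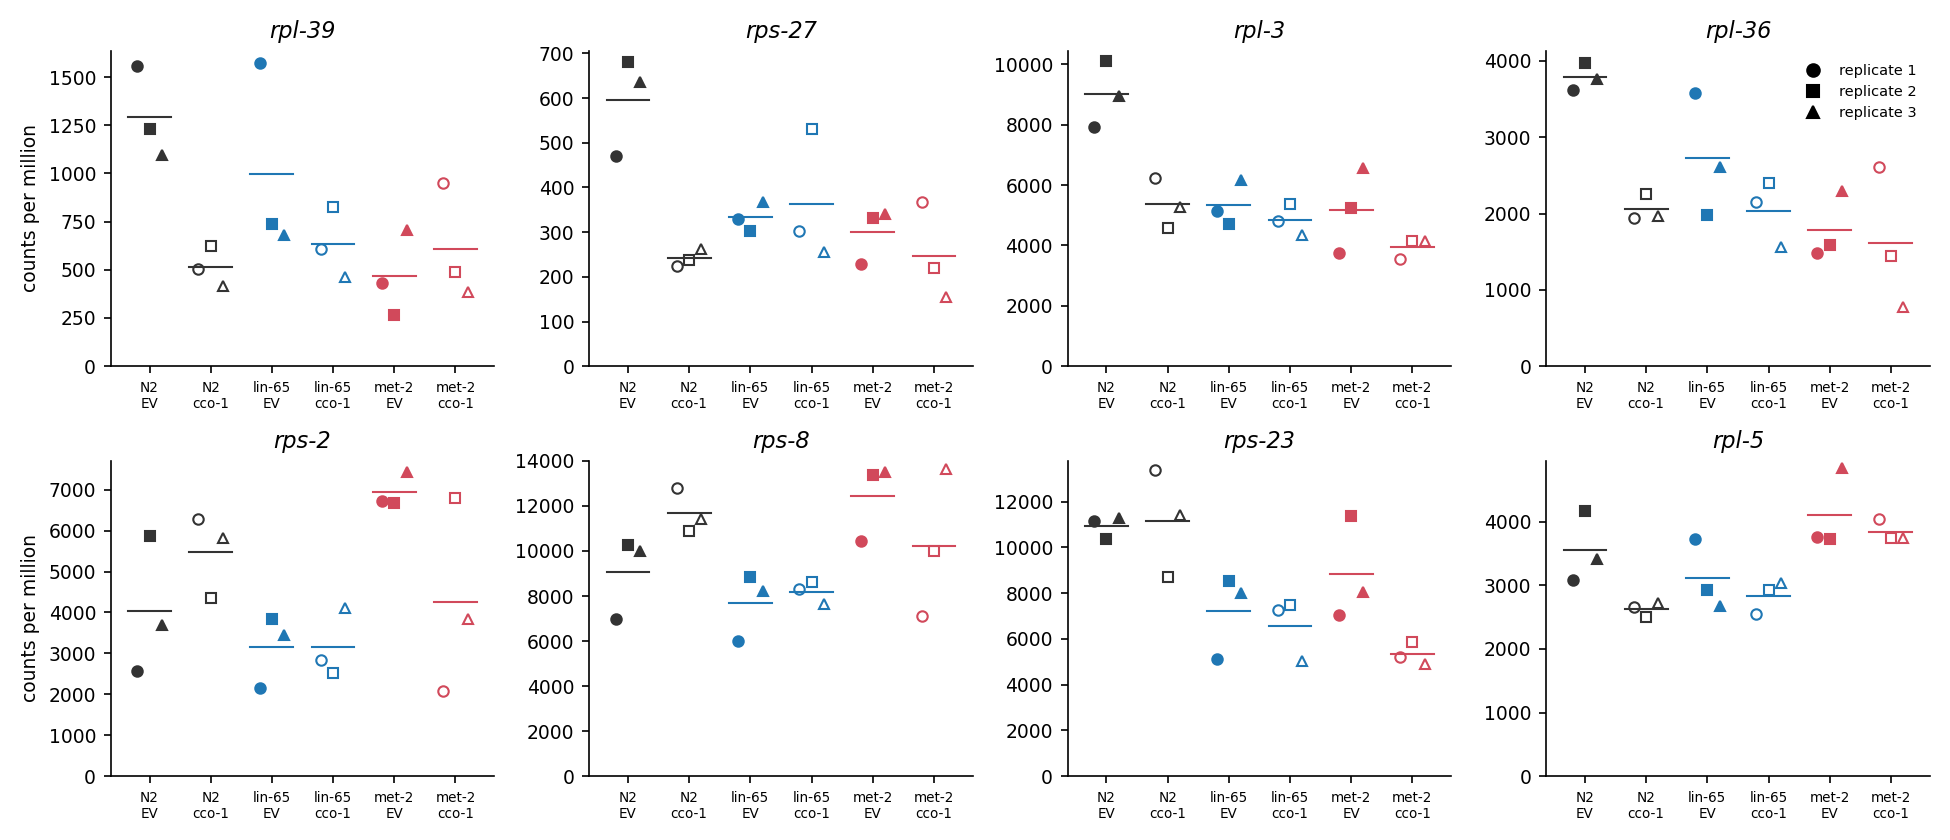
Level in CPM (y axis, from 0) in each of the 18 libraries for 8 named ribosomal protein genes, with the group mean as a line, filled symbols for empty vector (EV) and open symbols for cco-1 RNAi. By group mean, N2 on empty vector is highest in rps-27 and rpl-3. The lowest group mean is met-2 on cco-1 RNAi in rps-23 and N2 on cco-1 RNAi in rpl-5. Single libraries of these groups overlap with other groups except in rpl-3.

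Genes with a shared number can be compared within a library, where scaling cancels. L11 is encoded by rpl-11.1 on chromosome V and rpl-11.2 on X, and L25 by rpl-25.2 on chromosome I and rpl-25.1 on X. The other pairs share a number only: rpl-24.2 is the Rlp24 relative, and in mammals L7 and L7A, and L36 and L36A, are different proteins. The count ratio of each pair was compared between each mutant and N2 by permuting the strain labels of libraries on the same diet, an exact two-sided test with 400 arrangements and a smallest p of 0.005. There were 10 such tests, adjusted together, and the test was chosen after the values had been seen. How the authors' counting split reads between near-identical copies is not given in the sources used here, so each ratio is uncertain to that extent.

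The ratio of the L11 pair was lower in met-2. In N2 rpl-11.1 was at 2315, 2997 and 2293 CPM on empty vector and 1363, 1669 and 1416 on cco-1 RNAi, and rpl-11.2 at 2313, 2228 and 1999.7 CPM and then 1404, 1295 and 1555. The ratio of rpl-11.1 to rpl-11.2 was thus 0.911 to 1.35 in the 6 N2 libraries. In met-2 rpl-11.1 was at 876, 913 and 1379 CPM and then 2090.1, 1038 and 453, and rpl-11.2 at 1875, 1943 and 3437 CPM and then 2454, 2053 and 1955. Its ratio was 0.232 to 0.852, below every N2 library, with a log2 difference of -1.27 (exact permutation p = 0.005, adjusted p = 0.017). The difference was -1.38 within empty vector, -1.17 within cco-1 RNAi and -1.49 in the 16 libraries (adjusted p = 0.017). In edgeR rpl-11.1 alone was lower in met-2 on empty vector (-1.26 ± 0.43, adjusted p = 0.0361) and lost that call without any 1 of the 6 libraries compared, at an adjusted p of 0.0554 to 0.113. For rpl-11.2 it was 0.15 ± 0.25 (adjusted p = 0.665). In lin-65 the log2 ratio differed from N2 by 0.26 (exact permutation, adjusted p = 0.225).

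The L25 pair moved the same way. Levels of rpl-25.2 were 3251, 2605 and 2786 CPM in N2 and 1552, 1854 and 2546 in met-2 on empty vector, and of rpl-25.1 2082, 2051 and 2247 CPM against 2089, 1902 and 3355. The ratio of rpl-25.2 to rpl-25.1 was 1.15 to 1.56 in N2 and 0.686 to 1.14 in met-2, again without overlap (log2 difference -0.61, exact permutation p = 0.005, adjusted p = 0.017, and -0.72 in the 16 libraries). In lin-65 the difference was 0.19 (exact permutation, adjusted p = 0.225). In both pairs the gene with the lower share in met-2 was the autosomal one. Their transcripts are of nearly equal length, 495 and 494 nt, in the L25 pair, and 654 and 731 nt in the L11 pair.

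For the other pairs the groups overlapped. The ratio of rpl-36.A to rpl-36 was 0.835 to 1.21 in N2 and 1.10 to 1.58 in met-2 (log2 difference 0.27, exact permutation p = 0.005, adjusted p = 0.017). For rpl-24.2 to rpl-24.1 the met-2 difference was -0.51 (exact permutation p = 0.03, adjusted p = 0.075), with -0.88 within empty vector and -0.13 within cco-1 RNAi. For rpl-7A to rpl-7 it was -0.19 (adjusted p = 0.669 by the same exact test), with -0.66 and 0.27 within the diets, and -0.41 in the 16 libraries (adjusted p = 0.13, exact permutation). In lin-65 these 3 pairs differed from N2 by 0.09, -0.05 and 0.09, with an adjusted p of 0.669 or more.

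**Figure D5:**
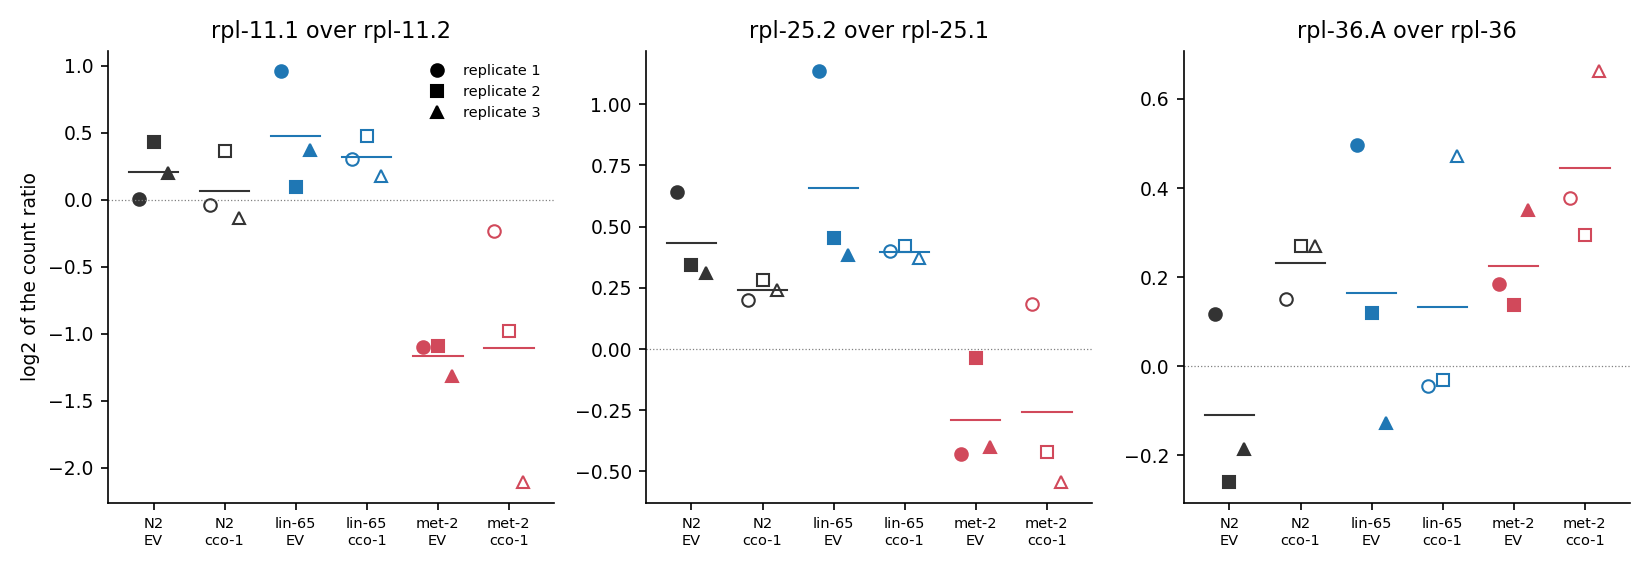
Log2 of the count ratio within each library for 3 pairs of ribosomal protein genes, with filled symbols for empty vector (EV), open symbols for cco-1 RNAi and a line at the group mean. All met-2 libraries lie below all N2 libraries for rpl-11.1 over rpl-11.2 and for rpl-25.2 over rpl-25.1. For rpl-36.A over rpl-36 each met-2 library lies above the N2 libraries on its diet, with overlap only across diets.

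Other genes of translation were counted from fixed lists. Among 6 further ribosomal proteins (the stalk proteins, ubiquitin fusions and RACK1) the median was -0.49 in the N2 response, -0.22 in lin-65 and -0.17 in met-2, and none was called in edgeR, with 3 at an unadjusted p under 0.05 in N2. In met-2 on empty vector, where 15.3% of all genes were called lower and 15.3% higher, 1 of the 6, the stalk gene rla-1, fell (-1.94 ± 0.57, adjusted p = 0.017). Its mean was 10804 ± 6012 CPM in N2 and 2823 ± 762 in met-2 (SD, n = 3). The 69 mitochondrial ribosomal protein genes, which serve a separate ribosome, had medians of -0.34, -0.18 and 0.30 in the 3 responses, with none called. Among them 5 fell and 2 rose in met-2 on empty vector.

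Of 29 ribosome biogenesis genes none was called in the 3 responses, with medians of -0.31, -0.21 and -0.17, but 12 fell and none rose in met-2 on empty vector, and 9 fell on cco-1 RNAi, where 9.59% of all genes were called lower. They included pro-2, at 201 ± 16.4 CPM in N2 and 41.8 ± 7.19 in met-2 (SD, n = 3; -2.26 ± 0.41, adjusted p = 0.001), and the methyltransferase gene nsun-1, at 117 ± 14.6 and 53.1 ± 9.77 CPM (-1.14 ± 0.22, adjusted p = 0.002). In met-2 on empty vector, where 15.3% of all genes were called higher and 15.3% lower, 5 of 34 initiation factors rose and 5 fell. Of the 6 elongation factors 2 rose and 1 fell, eef-1A.2 from 277 ± 79.3 to 1019 ± 131 CPM (SD, n = 3; 1.88 ± 0.61, adjusted p = 0.029). Of 20 tRNA synthetases 1 fell, and of 16 genes of TOR signalling and translational control 3 rose: pha-4, pek-1 and ncl-1, the last known to limit nucleolar size.

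Outside the lists, the genes whose log2 CPM over the 18 libraries was most like the members' median were eef-1B.1 (Pearson r = 0.97), which encodes a subunit of the exchange factor for elongation factor 1A, R01B10.3 (0.94) and Y22D7AL.15 (0.93). These are descriptions over libraries that share group, depth and length slope. All 3 transcripts are below the genome's median length, at 840, 447 and 539 nt.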

How the data were processed

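The deposited files hold raw counts per gene model, 1 library per file, made by the authors with Bowtie 0.12.7 and DESeq among the tools, per the submitters' processing notes. The sources used here do not give the build, annotation, counter or strand setting. Per the labels' protocols, libraries were made with ScriptSeq v2 from polyA RNA of clarified lysate. All count columns were used (0 left out). Of 20505 models, 20074 matched the WBcel235 annotation (Ensembl 115) by sequence name, the others holding 0.148% of counts. No sequences are shown.

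Libraries were grouped by title. Genes kept by filterByExpr (15110) were fitted with edgeR 4.0.16 (R 4.3.3; TMM, robust quasi-likelihood, 6 group means, two-sided) and p-values adjusted by Benjamini-Hochberg over all of them, with a threshold of 0.05. The script was tested on simulated data. SE was taken from the fold change and F value. Log2 CPM used a prior count of 2. Alternatives included DESeq2 1.42.0, limma 3.58.1 voom, other scalings, no filter, fewer libraries, a replicate block, length trends removed by loess (span 0.5) and each library left out. A count of 3, the upper limit that a count of 0 allows, came to 0.153 to 0.510 CPM; such limits cover counting error only.

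In deviations from the group mean, each N2 empty vector library correlated most with the cco-1 RNAi library of its number (0.126, 0.357 and 0.285). In lin-65 (0.201, 0.098, -0.055) and met-2 (-0.282, 0.208, -0.245) this held only for lin-65 replicate 1 and met-2 replicate 2. So few libraries a group allow few matchings, so this cannot settle whether the numbers pair the diets. The sources used here do not state a pairing.

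The members, 13 gene lists and tests were chosen with earlier results of these data known. Named members are those sharing a number, the 3 highest and lowest fold changes per response and per mutant on empty vector, the 3 highest and lowest mean CPM, those called, the 3 genes most correlated with the members, and up to 3 per list with the smallest p. The list entries iftb-1, nol-1, nol-2, nol-5 and opt-2 were not matched.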

Additional observations from a re-analysis of the deposited data

How the results depend on the processing

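The members' median in the N2 response stayed negative under every setting, at -0.57 to -0.42 when 1 library was left out, -0.31 with library totals and no TMM, -0.24 with the transcript length trend removed, and -0.33 and -0.34 with the 3′ UTR trend removed in 18 and 16 libraries. Library totals moved the median of all genes by 0.19 in that response, 0.20 in the lin-65 response, -0.20 in met-2 against N2 on cco-1 RNAi and -0.19 in met-2 minus N2, and the share of all calls that were higher from 64.6%, 37.96% and 53.9% to 76.8%, 58.2% and 35.8% in the first 3. The 0 members called in N2 became 3 with DESeq2, 32 with voom weights, 37 in the 6 N2 libraries, 21 in 16 libraries, 1 and 7 with the 3′ UTR trend removed in 18 and 16 libraries, and 0 to 2 when 1 library was left out. The replicate block gave 38 in the 6 N2 libraries and 0 in all 18, and changed no other count of called members by over 1.5 times, though rpl-29 and rpl-5 in met-2 on cco-1 RNAi missed the threshold under it (adjusted p = 0.0504 and 0.0526).

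Voom weights gave 1 call in the lin-65 response, 1 in met-2, 10 in met-2 minus N2, and 1, 40, 8 and 14 for lin-65 and met-2 against N2, first on empty vector and then on cco-1 RNAi. DESeq2 gave 1 and 5 for lin-65 on empty vector and met-2 on cco-1 RNAi. For met-2 on empty vector (6 calls) library totals gave 10, its own libraries 10, 16 libraries 22, the 3′ UTR trend in 16 libraries 18 (9 higher and 9 lower), and leaving out 1 library 1 to 10. For met-2 on cco-1 RNAi (3 calls) no filter gave 1, its own libraries 1, 16 libraries 10, the transcript length trend 5, the 3′ UTR trend in 16 libraries 14, and leaving out 1 library 1 to 6. For lin-65 on cco-1 RNAi 16 libraries gave 1, with and without the 3′ UTR trend. For the remaining settings no share of all genes is given here, so those counts show only how the calls moved.

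The lin-65 response median was -3.93e-06 with the 3′ UTR trend removed in 16 libraries. Lin-65 minus N2 (0.07) was 0.30 with voom, 0.40 in 16 libraries and -0.054 to 0.42 when 1 library was left out. Met-2 minus N2 (0.50) was 0.15 with the transcript length trend removed, 0.22 and 0.21 with the 3′ UTR trend removed, and 0.27 to 0.79 when 1 library was left out. The lin-65 median on cco-1 RNAi was 0.081 with library totals and -0.14 and -0.15 with the 3′ UTR trend removed. The met-2 median was -0.032 in 16 libraries and -0.031 to 0.29 when 1 library was left out on cco-1 RNAi, and -0.59 to -0.17 on empty vector. Without the 100 most abundant other genes in the denominator, mean shares were 30.5% and 26.9% in N2, 28.2% and 25.6% in lin-65, and 27.05% and 26.1% in met-2. Apart from the settings that leave libraries out, the causes were not tested.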
